A study of Mus musculus with 8 samples.

Results

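Normal myeloid cells of mouse bone marrow, sorted as Mac1+Gr1+, were compared with the 3 other normal populations sorted in the same series: B cells (B220+), T cells (CD3+) and lineage-negative cells (B220-CD3-Mac1-Gr1-). Every gene with at least 1 FPKM in any of these 4 libraries entered the comparison, which gave 11587 of the 16434 genes in the deposited table. FPKM is the number of sequenced fragments per kilobase of transcript, scaled to the mapped fragments of the library. All 4 populations came from bone marrow of C57BL/6 mice aged 8-10 weeks, served as normal controls for leukaemias driven by N-Myc, and have no allele or treatment named in the labels. Per the labels' protocols, equal numbers of cells were sorted for each library, the lineage-negative cells with a lineage cocktail of 7 antibodies. Poly(A) RNA was sequenced in read pairs of 150 bases. The labels do not say how many mice gave each library. The 4 leukaemia libraries of the series were used once, at the end, and were sorted as GFP+ cells of the same strain, tissue and age: AML (Mac1+Gr1+GFP+), B-ALL (B220+GFP+), T-ALL (CD3+GFP+) and AUL (B220-CD3-Mac1-Gr1-GFP+). The labels do not say how N-Myc was brought into these cells. Each population had 1 library, so no difference has a replicate check and no p-value is given.

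Mac1 is the integrin CD11b/CD18, encoded by Itgam and Itgb2, and Gr1 is an epitope of the Ly6g and Ly6c proteins. Most Mac1+Gr1+ cells of mouse marrow are known to be maturing neutrophils, with a smaller share of monocytes. Neutrophils fill their granules in a fixed order as they mature: primary granules with myeloperoxidase and elastase in promyelocytes, secondary granules with lactoferrin and lipocalin in myelocytes, tertiary granules with gelatinases later, and chemokine and cytokine genes in the most mature cells. Lineage-negative marrow is known to hold stem and progenitor cells, which include the promyelocyte precursors of the same lineage.

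For each gene the difference given is log2(FPKM + 1) in myeloid cells minus the mean of the 3 other libraries on that scale, so that 1 is a 2-fold difference for a well expressed gene and less than the true fold for a weak one. The 3 other libraries are different cell types and not replicates. Their range was therefore kept beside each mean: a gene was called above all 3 when myeloid cells lay at least 1 above the highest of them, and below all 3 when myeloid cells lay at least 1 below the lowest. Against the mean, 1550 genes (13.4%) were higher in myeloid cells and 4454 genes (38.4%) were lower. Beyond the range, 925 genes (7.98%) were above all 3 and 2724 genes (23.5%) were below all 3. A further 5010 genes lay outside the range by less than 1, and 2928 genes (25.3%) lay within it. The median difference over all genes was -0.68, with quartiles of -1.43 and 0.22, and the median width of the range of the 3 other libraries was 0.95.

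The excess of lower genes depended on how the libraries were scaled. Under median-ratio size factors, which equalise the typical gene instead of the fragment total, 2962 genes were higher and 2285 were lower than the mean. Of the genes so called, 56.5% were then higher, against 25.8% with the deposited scaling. The same factors gave 2059 genes above all 3 and 1009 below all 3, and moved the median of all genes to -0.11. Dividing by these factors, 0.613 for myeloid cells and 1.05 to 1.31 for the others, raises myeloid cells against each other library. All 925 genes above all 3 were therefore among the 2059, which is no check of those calls. Of the 2724 genes below all 3, 1009 were still so called. With each library set to a common FPKM sum, 1249 genes were higher, 5108 were lower (19.6% of the calls were higher), and the median was -0.83. The median of each gene list is for this reason read below against the median of all genes, -0.68. List counts are likewise to be read against the shares over all genes: 13.4% higher, 38.4% lower, 7.98% above all 3 and 23.5% below all 3. The summed FPKM of the listed genes was 670097 in myeloid cells, against 524198 in B cells, 568390 in T cells and 575849 in lineage-negative cells.

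Recovered totals were 52280039 fragments for myeloid cells, 39886650 for B cells, 37000575 for T cells and 44474284 for lineage-negative cells. Genes above all 3 had a median of 38.7 FPKM in myeloid cells, and the median of their middle values in the other libraries was 3.36 FPKM. Genes below all 3 had a median of 3.23 FPKM in myeloid cells and 19.0 FPKM by the same measure elsewhere. At the threshold, Gyg and Jup lay just inside the call with distances of 1.00 above the highest other library, and Ifitm1 and Gabarap just outside it with 0.997 and 0.993. On the other side, Qars and Ddx20 were just inside at -1.0003 each, and Map3k10 and Fam3c just outside at -0.9998 and -0.9993. The plot of all genes shows both groups of calls, with the abundant ribosomal and elongation factor genes at the lower right edge.

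**Figure D1:**
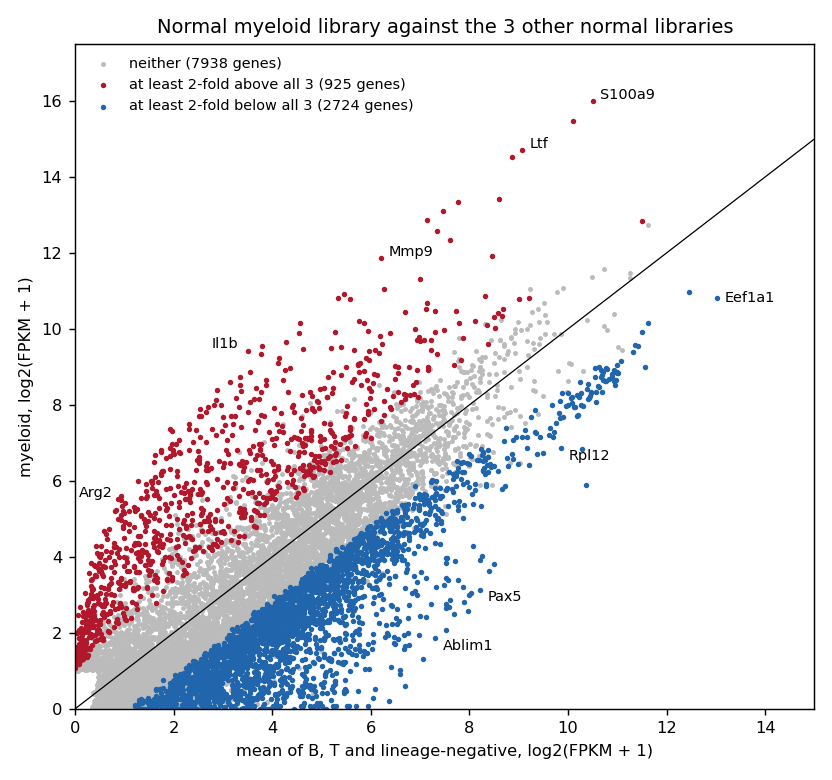
Each point is 1 gene, with the mean log2(FPKM + 1) of the B, T and lineage-negative libraries on the x axis and log2(FPKM + 1) of the myeloid library on the y axis (1 library each). The diagonal is equality; the 925 red genes lie at least 2-fold above all 3 other libraries and the 2724 blue genes at least 2-fold below all 3, with S100a9 and Ltf at the top and Eef1a1 and Rpl12 among the blue genes.

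The antigens of the gate matched the label of the myeloid library, which is a check of the sort and not a result. Itgam had 208 FPKM in myeloid cells, against 5.07 in B cells, 2.43 in T cells and 34.1 in lineage-negative cells, and Itgb2 had 1135 FPKM in myeloid cells, against 116 in B cells, 385 in T cells and 243 in lineage-negative cells. Ly6g, the neutrophil-restricted part of the Gr1 epitope, had 798 FPKM in myeloid cells, against 12.8 in B cells, 5.08 in T cells and 85.4 in lineage-negative cells. Ly6c2, the other part, was not highest in myeloid cells: it had 609 FPKM in myeloid cells, against 199 in B cells, 306 in T cells and 939.7 in lineage-negative cells. Reads of Ly6c1 and Ly6c2 can be split between near-identical copies, and Ly6c1 had 3.15 FPKM in myeloid cells. Cd3e, an invariant chain of the T-cell receptor complex, had 0.233 FPKM in myeloid cells, against 0.244 in B cells, 221 in T cells and 1.06 in lineage-negative cells. Another chain of that complex, Cd3d, had 10.2 FPKM in myeloid cells, against 0.991 in B cells, 584 in T cells and 6.77 in lineage-negative cells, so the B library was the lowest for it. Ptprc, whose B220 isoform cannot be read from gene values, had 451 FPKM in myeloid cells, against 362 in B cells, 766 in T cells and 182 in lineage-negative cells.

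Markers of neutrophils separated the myeloid library from all others. All 12 of the neutrophil markers were above all 3, and their median difference was 5.57. S100a9, a subunit of the calcium-binding protein calprotectin, had 65795 FPKM in myeloid cells, against 1122 in B cells, 380.3 in T cells and 7170.1 in lineage-negative cells. Retnlg, a resistin-like secreted protein, had 7482 FPKM in myeloid cells, against 92.9 in B cells, 37.6 in T cells and 776 in lineage-negative cells. Csf3r, the receptor of the granulocyte growth factor G-CSF, had 947 FPKM in myeloid cells, against 14.1 in B cells, 6.30 in T cells and 113 in lineage-negative cells. In each case the lineage-negative library came second and the T library last, by more than 10-fold between them.

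Granule genes differed by the stage at which neutrophils are known to make them. Among primary granule genes 9 of 10 passed the filter. Only 2 of them were at least 2-fold higher than the mean and none was above all 3. Their median difference was 0.51, against -0.68 for all genes, and turned to -0.58 with the T-cell library left out, while 6 were higher and 1 was above all 3 with median-ratio scaling. Of the 9, 8 were highest in lineage-negative cells. Mpo, which encodes myeloperoxidase, had 354 FPKM in myeloid cells, against 228 in B cells, 105 in T cells and 4089 in lineage-negative cells. Elane, which encodes neutrophil elastase, had 445 FPKM in myeloid cells, against 158 in B cells, 61.98 in T cells and 2797 in lineage-negative cells. Ctsg, which encodes cathepsin G, had 72.3 FPKM in myeloid cells, against 64.1 in B cells, 31.8 in T cells and 1059.9 in lineage-negative cells. Myeloid cells were thus above the B and T libraries and below the lineage-negative library for these 3 serine protease and peroxidase genes.

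Secondary granule genes were highest in myeloid cells without exception. All 16 were above all 3, with a median difference of 5.31. Ltf, Camp, Ngp, Lcn2 and Mmp8 of this list are also among the 12 neutrophil markers. Ltf, which encodes the iron-binding lactoferrin, had 26716 FPKM in myeloid cells, against 368 in B cells, 152 in T cells and 2785 in lineage-negative cells. Ngp, a neutrophil granule protein of the cystatin fold, had 23489 FPKM in myeloid cells, against 321 in B cells, 129 in T cells and 2436 in lineage-negative cells. Camp, the cathelicidin antimicrobial peptide precursor, had 10386 FPKM in myeloid cells, against 165 in B cells, 57.05 in T cells and 1073 in lineage-negative cells. These 3 genes and Lcn2, which encodes the siderophore-binding lipocalin 2, lay between 9.59-fold and 10.0-fold above the lineage-negative library. Lyz2, which encodes lysozyme and is also made by monocytes, had 10858 FPKM in myeloid cells, against 320.4 in B cells, 76.5 in T cells and 2338 in lineage-negative cells. The 2 lowest differences in the list were 4.32 for Pglyrp1, a peptidoglycan-binding protein, and 3.10 for the adhesion molecule Ceacam1.

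Tertiary granule genes followed the secondary ones. Of the 6 measured, 5 were above all 3 and the median difference was 4.64, with Mmp9 also among the neutrophil markers. Mmp9, which encodes gelatinase B (ENSMUSG00000017737, mm10 chromosome 2, 164940780 to 164955850), had 3723 FPKM in myeloid cells, against 44.9 in B cells, 25.9 in T cells and 323 in lineage-negative cells. Slc11a1, the phagosomal metal transporter, had 143 FPKM in myeloid cells, against 4.69 in B cells, 1.04 in T cells and 15.5 in lineage-negative cells. Fcnb, the lectin ficolin B, had 503 FPKM in myeloid cells, against 16.7 in B cells, 2.56 in T cells and 134 in lineage-negative cells, so its distance to lineage-negative cells was the smallest of the 5. Hpse, which encodes heparanase, was within the range, with 14.8 FPKM in myeloid cells, against 22.1 in B cells, 2.99 in T cells and 28.1 in lineage-negative cells. The plot of the 3 granule groups shows the primary group highest on the right of each line and the other groups highest on the left.

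**Figure D2:**
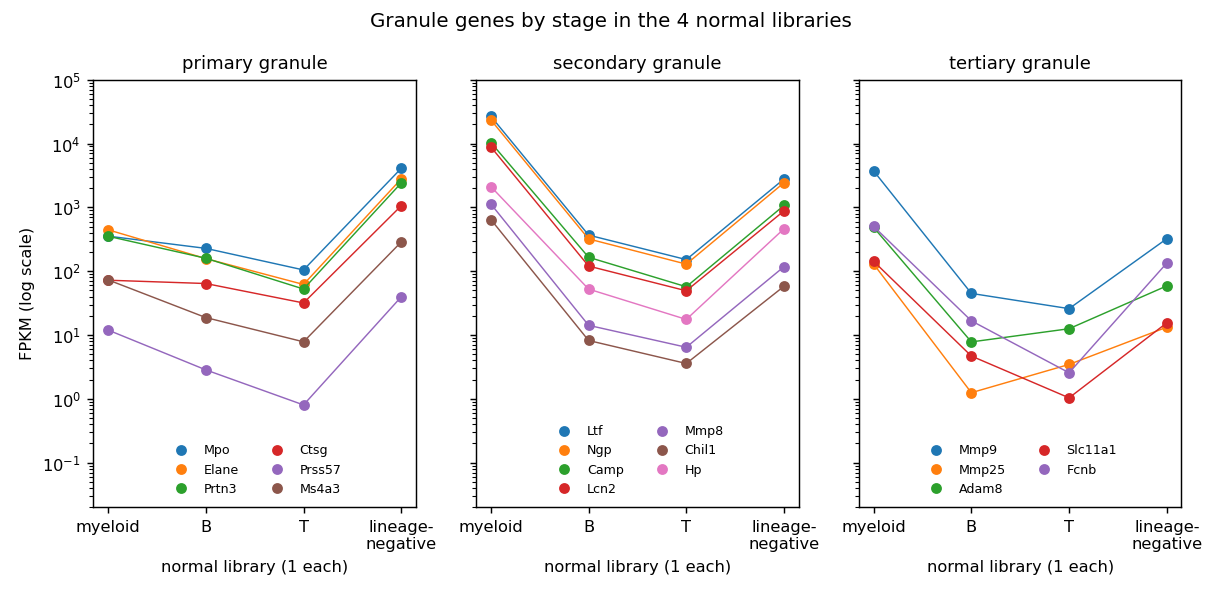
FPKM on a log axis in the 4 normal libraries (1 each) for genes of the primary, secondary and tertiary granules; lines join the values of 1 gene. The primary granule genes shown are highest in lineage-negative cells, up to 4089 FPKM for Mpo, whereas the secondary and tertiary genes shown are highest in myeloid cells, up to 26716 FPKM for Ltf.

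The promoters of the 5 secondary granule genes with the highest FPKM are shown beside that of Elane, because these are the groups that differed in where they were highest. C/EBP and PU.1 factors are known to act on granule genes in neutrophil development. Each run is the 250 bases before the RefSeq start site in GRCm38.p6, 5′ to 3′ on the strand of the gene, and capitals mark matches to TTNNGNAA (a C/EBP-type motif) or GAGGAA (an ETS-type motif that PU.1 binds) on either strand. Their positions are chr9:111019042-111019291 on the plus strand for Ltf, chr9:110419558-110419807 on the plus strand for Ngp, and chr10:117282273-117282522 on the minus strand for Lyz2. Camp lies at chr9:109849457-109849706 on the minus strand, Lcn2 at chr2:32387740-32387989 on the minus strand, and Elane at chr10:79886062-79886311 on the plus strand.
Ltf: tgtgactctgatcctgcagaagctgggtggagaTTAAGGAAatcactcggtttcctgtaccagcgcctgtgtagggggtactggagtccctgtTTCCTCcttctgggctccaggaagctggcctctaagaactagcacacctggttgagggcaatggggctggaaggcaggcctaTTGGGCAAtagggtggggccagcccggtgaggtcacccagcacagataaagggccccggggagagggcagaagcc
Ngp: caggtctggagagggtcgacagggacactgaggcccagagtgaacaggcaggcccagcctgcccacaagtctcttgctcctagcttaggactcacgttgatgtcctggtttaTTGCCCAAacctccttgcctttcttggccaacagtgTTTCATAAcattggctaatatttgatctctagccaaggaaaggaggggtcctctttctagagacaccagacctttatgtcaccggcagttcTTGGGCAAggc
Lyz2: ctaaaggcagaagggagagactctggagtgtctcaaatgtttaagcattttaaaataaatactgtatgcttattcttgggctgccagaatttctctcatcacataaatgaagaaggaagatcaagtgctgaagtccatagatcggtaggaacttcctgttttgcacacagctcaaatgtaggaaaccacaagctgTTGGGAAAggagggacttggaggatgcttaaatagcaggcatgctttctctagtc
Camp: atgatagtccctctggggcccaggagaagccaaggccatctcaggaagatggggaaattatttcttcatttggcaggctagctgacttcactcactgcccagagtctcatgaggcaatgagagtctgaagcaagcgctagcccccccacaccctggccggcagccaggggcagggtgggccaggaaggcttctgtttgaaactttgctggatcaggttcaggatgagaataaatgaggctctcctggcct
Lcn2: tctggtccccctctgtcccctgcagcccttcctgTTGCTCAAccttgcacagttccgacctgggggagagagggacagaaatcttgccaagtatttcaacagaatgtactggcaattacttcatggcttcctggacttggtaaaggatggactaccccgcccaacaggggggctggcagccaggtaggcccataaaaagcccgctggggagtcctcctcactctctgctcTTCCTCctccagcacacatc
Elane: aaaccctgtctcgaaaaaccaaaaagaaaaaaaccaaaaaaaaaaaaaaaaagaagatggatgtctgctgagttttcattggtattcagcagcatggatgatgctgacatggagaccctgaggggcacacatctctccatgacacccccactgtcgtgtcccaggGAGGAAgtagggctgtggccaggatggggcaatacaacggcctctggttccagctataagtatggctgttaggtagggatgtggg
Ltf has 2 matches of the first motif and 1 of the second, Ngp has 3 of the first, Lyz2 has 1 of the first, Lcn2 has 1 of each, Elane has 1 of the second and Camp has none of either.

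Over the genes with a promoter in the table, 10 of 14 secondary granule genes (71.4%) held TTNNGNAA and 9 of 14 (64.3%) held GAGGAA. Among genes above all 3, the shares were 230 of 627 (36.7%) for TTNNGNAA and 29.7% for GAGGAA. Genes below all 3 held them in 29.1% and 21.7% of 1795 promoters. Over all 7437 tested genes with a promoter the shares were 30.2% and 23.6%. The motifs can overlap each other, and a match describes letters in this window and not a bound site.

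The 12 genes furthest above all 3, among those with at least 10 FPKM, were Il1b, Asprv1, Pla2g7, Il1f9, Stfa2l1, Mmp9, Arg2, Il1rn, Chil1, Slfn4, Lrg1 and Cxcr2. Il1b, which encodes the inflammatory cytokine interleukin-1β (ENSMUSG00000027398, chromosome 2, 129364570 to 129371139), stood first with 678 FPKM in myeloid cells, against 7.97 in B cells, 4.08 in T cells and 31.6 in lineage-negative cells. It was 21.4-fold (95% counting interval 20.2 to 22.8) above the nearest library, the lineage-negative one, and the B and T libraries were lower still. Arg2, the mitochondrial arginase, had 36.4 FPKM in myeloid cells, against 0.404 in B cells, 0.189 in T cells and 2.30 in lineage-negative cells. Slfn4, a Schlafen gene of myeloid cells, had 749 FPKM in myeloid cells, against 7.42 in B cells, 3.60 in T cells and 67.7 in lineage-negative cells. Lrg1, a leucine-rich glycoprotein stored in neutrophil granules, had 387 FPKM in myeloid cells, against 4.95 in B cells, 2.10 in T cells and 35.9 in lineage-negative cells. For all 12 the nearest library was the lineage-negative one, and the distance to it was 10.8-fold (Lrg1) or more.

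Genes of the interleukin-1 pathway were higher on both of its sides. Of 12 measured inflammasome and IL-1 genes, 8 were higher than the mean, 1 was lower and 5 were above all 3, with a median difference of 1.76, and 8 were above all 3 with median-ratio scaling. Il1rn, which encodes the secreted antagonist of the IL-1 receptor, had 106 FPKM in myeloid cells, against 1.49 in B cells, 0.559 in T cells and 8.61 in lineage-negative cells. Il1r2, the decoy receptor that binds IL-1 without signalling, had 163 FPKM in myeloid cells, against 2.34 in B cells, 1.05 in T cells and 17.1 in lineage-negative cells. Nlrp3, the sensor of the canonical inflammasome, had 49.3 FPKM in myeloid cells, against 2.02 in B cells, 2.35 in T cells and 19.3 in lineage-negative cells. The protease that matures IL-1β differed little: Casp1 had 34.9 FPKM in myeloid cells, against 27.5 in B cells, 17.3 in T cells and 36.7 in lineage-negative cells. Aim2, a sensor of cytosolic DNA, was lower than in every other library, with a difference of -1.04.

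S100 and annexin genes split. Of 16 measured, 9 were higher than the mean, 2 were lower, 7 were above all 3 and 2 were below all 3, with a median difference of 1.69, and none was below all 3 with median-ratio scaling. S100a8, the calprotectin partner of S100a9, had 45392 FPKM in myeloid cells, against 748 in B cells, 283 in T cells and 6311 in lineage-negative cells. Anxa1, a phospholipid-binding protein that restrains neutrophil recruitment, had 5162 FPKM in myeloid cells, against 103 in B cells, 78.5 in T cells and 883 in lineage-negative cells. S100a6 had 1634 FPKM in myeloid cells, against 74.7 in B cells, 127 in T cells and 285 in lineage-negative cells. In the other direction, S100a10, the partner of annexin A2 at the membrane, had 74.3 FPKM in myeloid cells, against 217 in B cells, 471 in T cells and 349 in lineage-negative cells, although Anxa2 itself had 834 FPKM in myeloid cells, against 54.9 in B cells, 148 in T cells and 291 in lineage-negative cells.

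Inhibitors of proteases formed another block. Of 13 measured, 10 were above all 3 and 1 (Cst7) was lower than the mean. The median difference was 3.60. Of the 10, 6 are stefin A genes or their relatives on chromosome 16, which inhibit cysteine cathepsins in the cytosol. Stfa2l1 had 247 FPKM in myeloid cells, against 3.21 in B cells, 2.22 in T cells and 19.4 in lineage-negative cells, and Stfa1 had 38.7 FPKM in myeloid cells, against 0.360 in B cells, 0.776 in T cells and 3.87 in lineage-negative cells. These copies are near-identical, so fragments could be split among them and the value of any single copy is uncertain. Slpi, a secreted inhibitor of neutrophil elastase, had 722 FPKM in myeloid cells, against 23.2 in B cells, 10.5 in T cells and 175 in lineage-negative cells. Serpinb1a, an intracellular inhibitor of the same proteases, had 248 FPKM in myeloid cells, against 67.4 in B cells, 11.7 in T cells and 109 in lineage-negative cells. Cst7, which encodes cystatin F, had 10.1 FPKM in myeloid cells, against 10.1 in B cells, 77.4 in T cells and 122 in lineage-negative cells.

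Receptors for chemoattractants were higher in large part. Of 16 measured, 13 were higher than the mean, none was lower and 11 were above all 3, and the median difference was 3.27. Cxcr2, the receptor by which ELR chemokines draw mature neutrophils out of the marrow, had 329 FPKM in myeloid cells, against 4.31 in B cells, 5.44 in T cells and 30.4 in lineage-negative cells. Fpr2, a formyl peptide receptor, had 334 FPKM in myeloid cells, against 4.15 in B cells, 1.39 in T cells and 31.9 in lineage-negative cells. C5ar1, the receptor of complement fragment C5a, had 279.6 FPKM in myeloid cells, against 2.22 in B cells, 3.28 in T cells and 27.1 in lineage-negative cells. Cxcr4, which holds immature neutrophils in the marrow, was within the range, with 296 FPKM in myeloid cells, against 438 in B cells, 272 in T cells and 293 in lineage-negative cells. The monocyte chemokine receptor Ccr2 was also within it, with 68.4 FPKM in myeloid cells, against 18.4 in B cells, 38.4 in T cells and 98.6 in lineage-negative cells.

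Fc and paired immune receptors were higher nearly throughout. Of 27 measured, 25 were above all 3 and the other two, Treml2 and Fcgr2b, were neither higher nor lower than the mean by 2-fold. Their median difference was 3.60. Cd300lf, an inhibitory lipid receptor, had 401 FPKM in myeloid cells, against 31.2 in B cells, 3.72 in T cells and 42.1 in lineage-negative cells. Trem1, an activating receptor that amplifies inflammation, had 209.7 FPKM in myeloid cells, against 2.50 in B cells, 1.08 in T cells and 24.995 in lineage-negative cells. Cd33, a sialic acid-binding lectin, had 469 FPKM in myeloid cells, against 9.02 in B cells, 2.29 in T cells and 48.4 in lineage-negative cells. The adaptors that carry the activating signal were closer to the other libraries. Tyrobp, which encodes DAP12, had 1881 FPKM in myeloid cells, against 392 in B cells, 118 in T cells and 703 in lineage-negative cells. Fcer1g, the common Fc receptor γ chain, had 997 FPKM in myeloid cells, against 108 in B cells, 127 in T cells and 418 in lineage-negative cells. Fcgr2b, the inhibitory Fc receptor that B cells also use, had 88.7 FPKM in myeloid cells, against 99.6 in B cells, 20.2 in T cells and 88.9 in lineage-negative cells.

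Pattern recognition genes followed with 17 of 21 higher than the mean, 2 lower and 14 above all 3 (median difference 2.50). Clec4d, a C-type lectin for mycobacterial glycolipids, had 209 FPKM in myeloid cells, against 2.34 in B cells, 1.92 in T cells and 19.6 in lineage-negative cells. Tlr13, which recognises bacterial ribosomal RNA, had 76.2 FPKM in myeloid cells, against 1.31 in B cells, 0.323 in T cells and 11.8 in lineage-negative cells. Tlr4, the receptor of lipopolysaccharide, had 22.1 FPKM in myeloid cells, against 6.35 in B cells, 0.945 in T cells and 7.77 in lineage-negative cells. The 2 lower genes were Tlr9 and Tlr1. Tlr9, which senses unmethylated DNA and is used by B cells, had 4.09 FPKM in myeloid cells, against 29.7 in B cells, 4.19 in T cells and 7.54 in lineage-negative cells. Tlr1 had 3.15 FPKM in myeloid cells, against 39.4 in B cells, 30.7 in T cells and 4.44 in lineage-negative cells.

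Cytokine receptors were mixed. Of 27 measured, 13 were higher than the mean, 6 were lower, 6 were above all 3 and 3 were below all 3, with a median difference of 0.62, and 13 were above all 3 with median-ratio scaling. Csf2ra, the α chain of the GM-CSF receptor, had 534 FPKM in myeloid cells, against 47.3 in B cells, 14.7 in T cells and 200.04 in lineage-negative cells. Csf1r, the receptor of the macrophage growth factor, had 56.1 FPKM in myeloid cells, against 5.35 in B cells, 1.40 in T cells and 53.7 in lineage-negative cells, so lineage-negative cells came close to myeloid cells. Kit, the stem cell factor receptor of early progenitors and mast cells, had 16.97 FPKM in myeloid cells, against 3.98 in B cells, 4.43 in T cells and 57.9 in lineage-negative cells. The 3 genes below all 3 were receptors of lymphocyte cytokines, Il7r, Il2ra and Il2rb. Il7r had 1.27 FPKM in myeloid cells, against 48.05 in B cells, 111 in T cells and 24.7 in lineage-negative cells.

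Subunits of the phagocyte NADPH oxidase, the enzyme of the respiratory burst, were higher together. Of 8 measured genes, 5 were above all 3, none was lower, and the median difference was 2.16. Cybb, the catalytic subunit gp91phox, had 1470.1 FPKM in myeloid cells, against 268 in B cells, 30.5 in T cells and 316 in lineage-negative cells. Ncf1, the cytosolic organiser p47phox, had 1021 FPKM in myeloid cells, against 164 in B cells, 38.7 in T cells and 253 in lineage-negative cells. Rac2, the small GTPase that switches the enzyme on and is shared by all blood cells, had 609 FPKM in myeloid cells, against 279.6 in B cells, 403 in T cells and 251 in lineage-negative cells. Hvcn1, the proton channel that B cells also use, had 59.5 FPKM in myeloid cells, against 149.9 in B cells, 33.6 in T cells and 42.3 in lineage-negative cells.

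Signalling kinases divided along lineages. Of 14 measured Src, Syk and Tec family kinases, 5 were higher than the mean and 6 were lower, and 4 were above all 3 and 5 below all 3. Their median, -0.40, was 0.51 with median-ratio scaling. Fgr, a Src kinase of phagocytes, had 302 FPKM in myeloid cells, against 53.6 in B cells, 9.34 in T cells and 38.4 in lineage-negative cells. Lck, the Src kinase of T cells, had 2.83 FPKM in myeloid cells, against 31.8 in B cells, 610.0 in T cells and 26.03 in lineage-negative cells. Blk, that of B cells, had 1.35 FPKM in myeloid cells, against 149.6 in B cells, 23.3 in T cells and 21.2 in lineage-negative cells. Syk, shared by B and myeloid cells, was within the range with 184 FPKM in myeloid cells, against 436 in B cells, 58.3 in T cells and 156 in lineage-negative cells.

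Adhesion genes lay on both sides and actin genes were mostly higher, both depending on the scaling. Among 16 integrin and adhesion genes, 4 were higher than the mean, 8 were lower, 3 were above all 3 (Itgam, Itgb2 and Cd44) and 2 were below all 3, with a median of -1.04. With median-ratio scaling 7 were higher, 2 were lower and the median was -0.12. Pecam1, an endothelial and leukocyte adhesion molecule, had 7.87 FPKM in myeloid cells, against 91.02 in B cells, 59.5 in T cells and 59.96 in lineage-negative cells. Itga4, the α4 chain that retains progenitors in marrow, had 39.5 FPKM in myeloid cells, against 113 in B cells, 210.3 in T cells and 79.96 in lineage-negative cells. Of 23 actin cytoskeleton genes, 11 were higher, 1 was lower and 6 were above all 3, with a median of 0.98, and 20 were higher and 19 above all 3 with median-ratio scaling. Actb had 7382 FPKM in myeloid cells, against 2974 in B cells, 2781 in T cells and 2992 in lineage-negative cells, and Gsn, which severs filaments, had 453 FPKM in myeloid cells, against 104 in B cells, 29.5 in T cells and 91.9 in lineage-negative cells. Tmsb10, a thymosin that binds actin monomers, was the lower one, with 733 FPKM in myeloid cells, against 1410.3 in B cells, 3876 in T cells and 1589.5 in lineage-negative cells, whereas its relative Tmsb4x had 6769 FPKM in myeloid cells, against 2478 in B cells, 4066 in T cells and 3052 in lineage-negative cells.

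Transcription factors of the myeloid lineage were higher in part. Of 20 measured, 10 were above all 3 and 3 were lower than the mean, with a median difference of 1.05. Cebpe, which drives the secondary granule stage in mice, had 346 FPKM in myeloid cells, against 7.92 in B cells, 1.92 in T cells and 78.4 in lineage-negative cells. Spi1, which encodes PU.1, had 836 FPKM in myeloid cells, against 162 in B cells, 30.999 in T cells and 348 in lineage-negative cells. Mxd1, a partner of MAX that opposes MYC as cells mature, had 735 FPKM in myeloid cells, against 25.2 in B cells, 29.1 in T cells and 92.2 in lineage-negative cells. The factors of earlier stages were within the range of the other libraries, or under it by less than 2-fold. Cebpa, which starts granulocyte commitment, had 32.2 FPKM in myeloid cells, against 11.7 in B cells, 14.6 in T cells and 82.8 in lineage-negative cells. Gfi1, the repressor of promyelocytes, had 18.8 FPKM in myeloid cells, against 16.2 in B cells, 19.9 in T cells and 39.4 in lineage-negative cells. Irf8, which favours monocytes and dendritic cells over neutrophils, had 58.5 FPKM in myeloid cells, against 965 in B cells, 91.1 in T cells and 485 in lineage-negative cells.

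Factors of other lineages were lower. Of 26 measured, 19 were lower than the mean, 1 was higher and 12 were below all 3, with a median of -2.14, and 4 were higher with median-ratio scaling. Pax5, the commitment factor of B cells (ENSMUSG00000014030, chromosome 4, 44524757 to 44710487), had 7.76 FPKM in myeloid cells, against 1073 in B cells, 149.5 in T cells and 164 in lineage-negative cells. Tcf7, a factor of T cells, had 0.872 FPKM in myeloid cells, against 6.81 in B cells, 449.7 in T cells and 9.74 in lineage-negative cells. Myc, the growth regulator, had 6.45 FPKM in myeloid cells, against 47.4 in B cells, 98.2 in T cells and 89.95 in lineage-negative cells. Erg, a factor of stem cells and the one higher gene, had 39.97 FPKM in myeloid cells, against 8.22 in B cells, 2.80 in T cells and 34.2 in lineage-negative cells.

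Genes of glucose use were mostly higher. Of 18 glycolysis genes, 11 were higher than the mean, 1 was lower and 3 were above all 3, with a median of 1.18, and 12 were above all 3 with median-ratio scaling. Slc2a3, a high-affinity glucose transporter, had 578 FPKM in myeloid cells, against 44.8 in B cells, 61.1 in T cells and 84.05 in lineage-negative cells. Pfkfb4, which makes the activator of phosphofructokinase, had 186 FPKM in myeloid cells, against 14.3 in B cells, 4.17 in T cells and 27.7 in lineage-negative cells. Hk3, a hexokinase of myeloid cells, had 465 FPKM in myeloid cells, against 15.7 in B cells, 15.03 in T cells and 198 in lineage-negative cells. Pfkm, the muscle-type phosphofructokinase, was below all 3, with 0.954 FPKM in myeloid cells, against 3.34 in B cells, 4.34 in T cells and 7.87 in lineage-negative cells. Of 12 pentose phosphate and glycogen genes, 8 were higher, 1 was lower and 7 were above all 3, with a median of 2.03. G6pdx, which commits glucose to NADPH production, had 473 FPKM in myeloid cells, against 37.1 in B cells, 29.6 in T cells and 169.6 in lineage-negative cells. Pygl, which releases glucose from glycogen, had 972 FPKM in myeloid cells, against 20.5 in B cells, 14.4 in T cells and 175 in lineage-negative cells. Pgls, the enzyme after G6pdx in the same route, was the lower one, with 47.1 FPKM in myeloid cells, against 209.7 in B cells, 63.6 in T cells and 147 in lineage-negative cells.

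Mitochondrial enzymes lay near or below the median of all genes. Among 11 citric acid cycle genes, 7 were lower, none was higher and 5 were below all 3 (median -1.09, and -0.17 with 2 lower and 1 below all 3 with median-ratio scaling). Suclg2, a subunit of the GTP-forming succinate ligase, had 3.31 FPKM in myeloid cells, against 17.6 in B cells, 22.7 in T cells and 33.3 in lineage-negative cells. Idh2, the NADP-linked isocitrate dehydrogenase, had 17.04 FPKM in myeloid cells, against 76.3 in B cells, 43.9 in T cells and 193 in lineage-negative cells. Mdh2, malate dehydrogenase, was within the range with 232 FPKM in myeloid cells, against 148 in B cells, 159.7 in T cells and 243 in lineage-negative cells. Of 18 respiratory chain genes, 4 were lower and 3 were below all 3, which is under the shares of all genes (38.4% and 23.5%). Their median of -0.84 became 0.10 with median-ratio scaling, which left none lower.

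Enzymes of lipid mediators were higher as a group: 10 of 12 were above the mean by 2-fold, none was lower and 6 were above all 3 (median 2.69). Pla2g7, which degrades platelet-activating factor, had 108 FPKM in myeloid cells, against 2.87 in B cells, 0.835 in T cells and 7.60 in lineage-negative cells. Alox5, the first enzyme of leukotriene synthesis, had 324 FPKM in myeloid cells, against 5.96 in B cells, 14.6 in T cells and 72.5 in lineage-negative cells. Ptgs2, the inducible cyclooxygenase, had 82.8 FPKM in myeloid cells, against 1.58 in B cells, 5.25 in T cells and 14.3 in lineage-negative cells. Lta4h, which makes leukotriene B4, had 666 FPKM in myeloid cells, against 106 in B cells, 179 in T cells and 449 in lineage-negative cells. Iron genes had 8 of 12 higher, 3 lower, 6 above all 3 and 2 below all 3 (median 1.64), a list that shares Ltf, Lcn2 and Hp with the granule genes. Slc40a1, the iron exporter ferroportin, had 190.1 FPKM in myeloid cells, against 16.9 in B cells, 3.15 in T cells and 28.8 in lineage-negative cells, whereas the iron importer Tfrc had 18.6 FPKM in myeloid cells, against 208 in B cells, 63.3 in T cells and 141 in lineage-negative cells. Slc11a2, the importer DMT1, had 2.56 FPKM in myeloid cells, against 33.4 in B cells, 62.4 in T cells and 27.96 in lineage-negative cells. Of 18 lysosomal genes, 4 were higher, 1 was lower and none was above all 3, with a median of 0.33 that was -0.17 with the T-cell library left out, whereas median-ratio scaling gave 10 higher, 6 above all 3 and a median of 1.25.

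Interferon response genes were higher in 15 of 29, lower in 2, and above all 3 in 8 (median 1.04), and above all 3 in 15 with median-ratio scaling. Ifitm6, a membrane protein made in myeloid cells, had 1929 FPKM in myeloid cells, against 30.03 in B cells, 10.1 in T cells and 249.2 in lineage-negative cells. Oasl2, of the oligoadenylate synthetase family, had 158 FPKM in myeloid cells, against 18.9 in B cells, 10.7 in T cells and 22.2 in lineage-negative cells. Rsad2, which encodes the antiviral enzyme viperin, had 34.5 FPKM in myeloid cells, against 3.35 in B cells, 4.78 in T cells and 4.49 in lineage-negative cells. Irf9, a factor that carries the interferon signal to DNA, did not differ by 2-fold, with 54.2 FPKM in myeloid cells, against 62.7 in B cells, 45.9 in T cells and 41.4 in lineage-negative cells. Bst2, the tether of budding virions and a marker of plasmacytoid dendritic cells, was below all 3, with 57.2 FPKM in myeloid cells, against 796 in B cells, 162 in T cells and 255 in lineage-negative cells.

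MHC class II genes, which present antigen to helper T cells, were lower in all 10 measured members, and 2 were below all 3 (median -2.46). Cd74, the invariant chain, had 87.04 FPKM in myeloid cells, against 2869.6 in B cells, 354 in T cells and 136 in lineage-negative cells. H2-Ob, of the peptide exchange regulator H2-O, had 2.13 FPKM in myeloid cells, against 366 in B cells, 82.1 in T cells and 35.3 in lineage-negative cells. Ciita, the master activator of the group, had 0.819 FPKM in myeloid cells, against 50.1 in B cells, 6.15 in T cells and 2.18 in lineage-negative cells. The B library was the highest for all 10. Of 12 BCL2 family genes, 2 were below all 3 and none was higher, with a median of -0.38. That median became 0.40 with median-ratio scaling, which called 4 higher and 1 lower. Since 23.5% of all genes were below all 3, the counts below all 3 in the MHC class II and BCL2 lists lay near or under that share. Mcl1, the survival protein that neutrophils depend on, had 608 FPKM in myeloid cells, against 408 in B cells, 319.7 in T cells and 243 in lineage-negative cells. Bcl2 had 2.01 FPKM in myeloid cells, against 16.5 in B cells, 88.4 in T cells and 16.3 in lineage-negative cells, and Bax had 30.5 FPKM in myeloid cells, against 80.1 in B cells, 130.2 in T cells and 91.1 in lineage-negative cells.

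Genes for making ribosomes were lower almost without exception. Of 81 cytosolic ribosomal protein genes that passed the filter, 76 were lower than the mean, none was higher and 75 were below all 3. Their median of -2.09 lay 1.41 below that of all genes. With median-ratio scaling the median was -1.16, with 51 lower and 16 below all 3, and it lay 1.05 below that of all genes. Rpl12 had 115 FPKM in myeloid cells, against 648 in B cells, 1676 in T cells and 739 in lineage-negative cells. Rps20 had 86.4 FPKM in myeloid cells, against 462 in B cells, 632 in T cells and 436 in lineage-negative cells. Myeloid cells were the lowest library for 78 of the 81 genes. The 6 that were not below all 3 were Rpl17, Rpl24, Rpl7l1, Rpl3l, Rps27l and Rps4l. The last 4 are paralogs of the main subunits, but other paralogs, such as Rpl22l1 and Rpl36al, were below all 3. T cells were the highest library for 71 of the 81.

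Ribosome biogenesis genes lay on the same side. Of 29, 28 were lower than the mean and 27 were below all 3, with a median of -2.15, and 21 were lower and 16 below all 3 with median-ratio scaling (median -1.35). Npm1, the nucleolar chaperone nucleophosmin, had 84.9 FPKM in myeloid cells, against 438 in B cells, 614 in T cells and 757 in lineage-negative cells. Dkc1, the pseudouridine synthase of ribosomal RNA, had 11.8 FPKM in myeloid cells, against 83.2 in B cells, 98.6 in T cells and 141 in lineage-negative cells. The exception was Polr1a, the largest subunit of RNA polymerase I, with 46.6 FPKM in myeloid cells, against 26.5 in B cells, 28.1 in T cells and 35.3 in lineage-negative cells. Its partner Polr1b had 3.54 FPKM in myeloid cells, against 19.1 in B cells, 21.6 in T cells and 28.6 in lineage-negative cells. Unlike the ribosomal proteins, 24 of these 29 genes were highest in lineage-negative cells. Of 14 translation factors, 12 were lower, 1 was higher and 10 were below all 3 (median -1.61, and -0.72 with 5 lower and 2 below all 3 with median-ratio scaling). Eef1a1, the main elongation factor, had 1801 FPKM in myeloid cells, against 6522 in B cells, 11897 in T cells and 7374 in lineage-negative cells. Eif4ebp1, a repressor of cap-dependent initiation, was the higher one, with 81.9 FPKM in myeloid cells, against 25.4 in B cells, 11.1 in T cells and 46.4 in lineage-negative cells. Of 9 genes for folding and secretion in the endoplasmic reticulum, 7 were lower and 1 was below all 3 (median -1.41), but 1 was lower with median-ratio scaling (median -0.48). Calr had 215 FPKM in myeloid cells, against 522 in B cells, 409 in T cells and 1422 in lineage-negative cells.

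Cell cycle genes differed between phases: the list median minus that of all genes was 0.74 for mitosis and -0.30 for DNA replication. None of 27 mitosis genes was called in either direction, and 26 lay within the range of the other libraries. Their median of 0.06 was 0.99 with median-ratio scaling, which called 13 of them higher, and -0.20 with a common sum. Mki67, the proliferation antigen, had 91.96 FPKM in myeloid cells, against 112 in B cells, 34.5 in T cells and 136 in lineage-negative cells. Plk1, a mitotic kinase, had 47.4 FPKM in myeloid cells, against 49.1 in B cells, 15.2 in T cells and 63.99 in lineage-negative cells. T cells were the lowest library for 26 of the 27, and lineage-negative cells the highest for 22. DNA replication genes were lower in 14 of 28 and higher in none, with 2 below all 3. Over all genes, 38.4% were lower, 13.4% were higher and 23.5% were below all 3. The median of the DNA replication genes is given next. Their median was -0.98, and with median-ratio scaling it was -0.10, within 0.01 of the median of all genes, with 1 lower and 2 higher. Ung, which removes uracil from DNA, had 1.98 FPKM in myeloid cells, against 13.3 in B cells, 12.9 in T cells and 31.8 in lineage-negative cells. Cdt1, which loads the replicative helicase, had 19.2 FPKM in myeloid cells, against 56.3 in B cells, 47.4 in T cells and 84.3 in lineage-negative cells. Mcm2, a subunit of that helicase, had 47.04 FPKM in myeloid cells, against 126 in B cells, 85.3 in T cells and 251 in lineage-negative cells.

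Of 10 genes of nuclear shape and chromatin release, 2 were above all 3 and 3 were lower than the mean, with a median of 0.11 that was -0.36 with the T-cell library left out, while 5 were higher and 1 was lower with median-ratio scaling. Padi4, which citrullinates histones when neutrophils cast out chromatin, had 551 FPKM in myeloid cells, against 9.98 in B cells, 5.85 in T cells and 69.6 in lineage-negative cells. Lbr, the receptor needed for the lobed nucleus, had 515 FPKM in myeloid cells, against 286 in B cells, 275 in T cells and 323 in lineage-negative cells. Lmna, which encodes the stiff lamins A and C, had 0.509 FPKM in myeloid cells, against 1.66 in B cells, 4.46 in T cells and 4.01 in lineage-negative cells. In bulk RNA, fewer cells of a type and less RNA per cell cannot be told apart, which touches each level in these paragraphs.

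**Figure D3:**
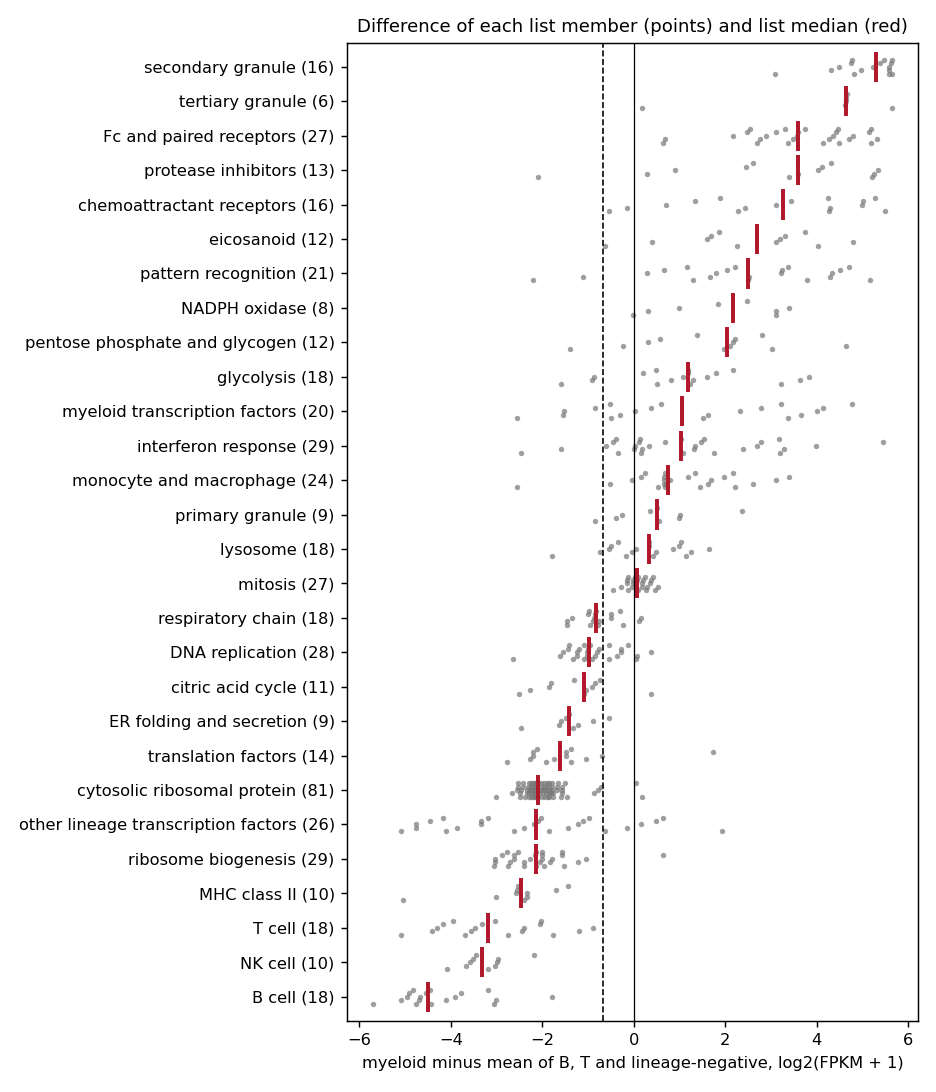
Each grey point is the difference of 1 gene (myeloid minus the mean of the B, T and lineage-negative libraries, log2(FPKM + 1)), each row is 1 list with the number of measured genes, and red bars are list medians. The solid line is 0 and the dashed line is the median of all genes, -0.68; among the lists shown the secondary granule median of 5.31 is at the top and the B-cell median of -4.50 at the bottom.

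The genes furthest below all 3, among those with at least 10 FPKM in each of the others, included Cd72, Pax5, Cd7, Ablim1, Cd79a, Slamf6, Bach2, Ly6d, Cpm, Hmgn1 and Cd79b. Cd79a, a signalling chain of the B-cell receptor (ENSMUSG00000003379, chromosome 7, 24897381 to 24902197), had 12.9 FPKM in myeloid cells, against 1121 in B cells, 215 in T cells and 198 in lineage-negative cells. Slamf6, a lymphocyte adhesion receptor, had 1.05 FPKM in myeloid cells, against 94.7 in B cells, 85.7 in T cells and 28.3 in lineage-negative cells. Ablim1, an actin-binding LIM protein, had 2.62 FPKM in myeloid cells, against 218 in B cells, 345 in T cells and 51.3 in lineage-negative cells. Hmgn1, a nucleosome-binding protein, had 8.16 FPKM in myeloid cells, against 235 in B cells, 143 in T cells and 119.9 in lineage-negative cells. It was 14.7-fold (95% counting interval 13.3 to 16.3) below the nearest library.

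B-cell genes were read in each of the other libraries. Over the 18 B-cell genes, T cells had a median of 13.7% of the value in B cells (10.9% to 19.2%), and lineage-negative cells a median of 17.7% (0.206% to 126%). The myeloid library had a median of 1.00% of the value in B cells (0.0159% to 6.03%). The myeloid library was thus the lowest of the 4 for all 18. All were lower than the mean and 15 were below all 3, with a median of -4.50. Ms4a1, which encodes CD20 of mature B cells, had 0.431 FPKM in myeloid cells, against 298 in B cells, 37.6 in T cells and 6.74 in lineage-negative cells. Vpreb1, of the surrogate light chain of precursor B cells, had 4.32 FPKM in myeloid cells, against 71.6 in B cells, 11.97 in T cells and 90.3 in lineage-negative cells. The part of B-cell RNA in the T and lineage-negative libraries in these calls was not tested.

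T-cell genes were lower in 17 of 18 and below all 3 in 6 (median -3.18), with a median of 0.329% of the T-cell value in myeloid cells, 1.47% in B cells and 1.498% in lineage-negative cells. Trat1, a T-cell receptor adaptor, was at 0 in myeloid cells, against 0.0733 FPKM in B cells, 28.3 in T cells and 0.230 in lineage-negative cells. NK-cell genes were lower in all 10 and below all 3 in 9 (median -3.32). Klrd1, a chain of NK receptors, had 3.65 FPKM in myeloid cells, against 50.2 in B cells, 253 in T cells and 37.5 in lineage-negative cells. Plasmacytoid dendritic cell genes were lower in all 9 and below all 3 in 6 (median -3.34). Siglech had 2.18 FPKM in myeloid cells, against 361 in B cells, 11.7 in T cells and 33.05 in lineage-negative cells. Among 7 dendritic cell genes 3 were lower and 1 was below all 3 (median -0.99). Among 6 plasma cell genes 4 were lower and 3 were below all 3 (median -2.03). The shares over all genes were 38.4% lower and 23.5% below all 3.

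Other myeloid lineages gave a different pattern. Of 24 monocyte and macrophage genes, 11 were higher than the mean, 1 was lower, 5 were above all 3 and 15 were within the range (median 0.75), and 19 were higher and 9 above all 3 with median-ratio scaling. Ccl6, a chemokine that neutrophils also make, had 783 FPKM in myeloid cells, against 28.5 in B cells, 68.1 in T cells and 201 in lineage-negative cells. Adgre1, which encodes F4/80 of macrophages, had 17.999 FPKM in myeloid cells, against 3.27 in B cells, 0.781 in T cells and 8.10 in lineage-negative cells. F13a1, of monocytes, had 73.04 FPKM in myeloid cells, against 12.98 in B cells, 3.66 in T cells and 187 in lineage-negative cells. None of 10 eosinophil genes was above all 3, 2 were higher than the mean and 8 were highest in lineage-negative cells (median 0.25, -0.01 with a common sum, and 1.17 with 6 higher with median-ratio scaling). Prg2, the eosinophil major basic protein, had 133 FPKM in myeloid cells, against 85.7 in B cells, 19.9 in T cells and 1057 in lineage-negative cells. Basophil and mast cell genes were lower in 7 of 10, and 9 of the 10 were highest in lineage-negative cells (median -1.71), but with median-ratio scaling 1 was lower and 2 were higher (median -0.81). Mcpt8, a basophil protease, had 55.3 FPKM in myeloid cells, against 55.01 in B cells, 147 in T cells and 819 in lineage-negative cells. The exception was Hdc, which makes histamine and is also used by neutrophils, with 341 FPKM in myeloid cells, against 9.91 in B cells, 22.4 in T cells and 118 in lineage-negative cells.

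Erythroid genes were lower in 8 of 14 with 2 below all 3 (median -1.11), and none was higher, while median-ratio scaling gave 5 lower and none below all 3. Megakaryocyte genes gave 1 higher and 2 lower of 7, none beyond the range by the size of a call (median -0.51, and 0.16 with the lineage-negative library left out). Stem and progenitor genes gave 1 higher and 7 lower of 18, with 3 below all 3 (median -0.76, beside -0.68 for all genes). With median-ratio scaling 5 were higher and 5 were lower. The shares over all genes with the deposited scaling were 13.4% higher, 38.4% lower and 23.5% below all 3. The megakaryocyte and the stem and progenitor counts lay near or under these shares, as did the erythroid count below all 3. Cd34 had 4.56 FPKM in myeloid cells, against 3.75 in B cells, 2.13 in T cells and 68.8 in lineage-negative cells. Among 8 genes of the Ly6 family, 2 were higher, 4 were lower and 3 were below all 3 (median -0.90). Ly6a, which encodes Sca-1 of stem cells, had 2.56 FPKM in myeloid cells, against 111 in B cells, 51.2 in T cells and 13.8 in lineage-negative cells. Among 10 genes of the MS4A family, 4 were higher and 4 were lower (median 0.15, -0.12 with a common sum, and 1.07 with 5 higher and 2 lower with median-ratio scaling).

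Neutrophil markers were read in each of the other gates at a low share of the myeloid value. For the 12 neutrophil markers, lineage-negative cells had a median of 10.4% of the myeloid value (8.67% to 13.9%). B cells had a median of 1.37% (1.21% to 1.71%), and T cells 0.573% (0.503% to 1.66%). Secondary granule genes had a median of 10.5% in lineage-negative cells (9.005% to 21.9%), 1.64% in B cells (1.26% to 23.2%) and 0.569% in T cells (0.362% to 3.57%). The 2 lists share Ltf, Camp, Ngp, Lcn2 and Mmp8, so their medians rest in part on the same genes. Over all 925 genes above all 3 the medians were 21.8% in lineage-negative cells, 6.77% in B cells and 4.49% in T cells. The call itself caps these shares, since it needs 2-fold above each library, and the highest was 49.6%. These 3 medians therefore follow in part from the rule that chose the genes. The 6 most abundant of these genes did not share 1 proportion: S100a9, Ltf, Ngp and Camp were 9.18-fold to 9.68-fold higher in myeloid than in lineage-negative cells, S100a8 was 7.19-fold higher and Lyz2 was 4.64-fold higher. Lineage-negative cells were the highest of the other libraries for 738 of the 925 genes above all 3 (79.8%), B cells for 97 and T cells for 90. The myeloid margin of such genes is thus a margin over a library with about 10% of the myeloid level of neutrophil markers, and with the lineage-negative library left out 1419 genes were above the 2 others. The part of neutrophil RNA in the lineage-negative library in each margin was not tested.

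Other genes lay outside these shares or at their lower edge. Among genes above all 3 with at least 10 FPKM in myeloid cells, predicted genes left out, 30 had a lower share in lineage-negative cells than the lowest secondary granule gene, Chil1 (9.005%). Il1b was the lowest, at 4.66% (95% counting interval 4.39 to 4.95). Nlrp12 had 6.96%, Pla2g7 had 7.04% and Il1rn had 8.09%. Mmp9, itself a neutrophil marker, had 8.67%, the lowest of the 12 markers. Vnn3, a vanin-family gene that had 18.6 FPKM in myeloid cells, had 4.93%, and Cd101, an inhibitory receptor known from mature neutrophils, had 6.14%. At the other end, Lyz2 had 21.5%, Hp had 21.9% and Fcnb had 26.7% of the myeloid value in lineage-negative cells. These shares cover counting error only, since each rests on 1 library per gate.

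**Figure D4:**
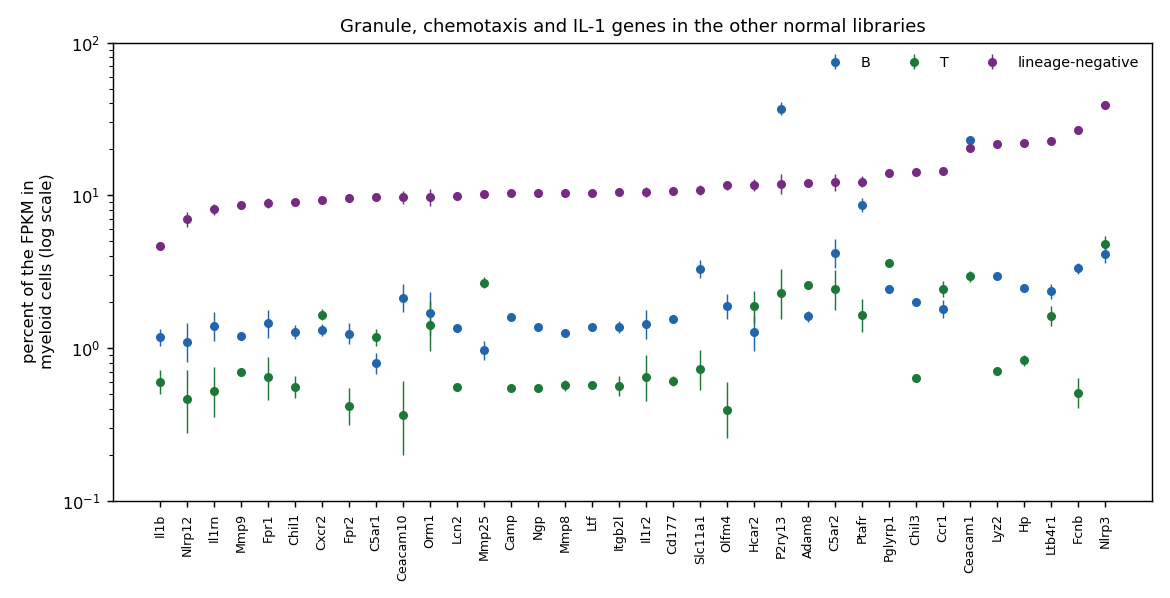
FPKM in the B, T and lineage-negative libraries (1 each) as a percent of the myeloid value, on a log axis, for secondary and tertiary granule, chemoattractant receptor and IL-1 genes that lay above all 3, sorted by the lineage-negative share. Bars are 95% counting intervals; Il1b is at 4.66% in lineage-negative cells at the left, most granule genes lie near 10%, and Fcnb is at 26.7% toward the right.

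Some genes above all 3 lay side by side in the genome. Runs of at least 4 such genes with no gap over 200 kb numbered 32 and held 167 genes. Many of the runs are known families that arose by duplication, so fragments could be split between near-identical copies within them. The run with the most genes, in mm10 coordinates, lay on chromosome 7 from 3218784 to 3915503, where 12 of 19 tested genes were above all 3, with Pirb, Pira2 and Lilra6 of the paired immunoglobulin-like receptors and Nlrp12. On chromosome 6 from 122560044 to 123289870, 10 of 18 tested genes were above all 3, with 6 C-type lectin genes from Clec4a1 to Clec4e and Slc2a3. A run of Cd300 receptors and predicted genes on chromosome 11, from 114890041 to 115133992, had 8 of 10. The run that holds the stefin A genes on chromosome 16, from 36156811 to 36455392, had 7 of 7, predicted genes included. Trem1, Trem3 and Treml4 lay in a run on chromosome 17, from 48125605 to 48327024, with 6 of 7. A run with Pilra, Pilrb1, Pilrb2 and predicted genes on chromosome 5, from 137821952 to 137896959, had 6 of 6. The runs were defined by these calls, so the shares within them describe the runs and are set against no background.

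The same genes were read in the 4 leukaemia libraries, which share no sample with the normal ones. By its label, AML had the same gate as the myeloid cells with GFP added. It was set against the mean of B-ALL, T-ALL and AUL on the same scale. Both Mac1 genes were lowest in AML. Itgam had 1.63 FPKM in AML, against 17.04 in B-ALL, 3.299 in T-ALL and 3.06 in AUL. Itgb2 had 27.7 FPKM in AML, against 109.97 in B-ALL, 174 in T-ALL and 196 in AUL. Ly6g had 8.91 FPKM in AML, against 35.9 in B-ALL, 4.53 in T-ALL and 5.92 in AUL. The cause of the low Mac1 values was not tested. Of the genes tested in the normal libraries, 10039 also had at least 1 FPKM in some leukaemia. Over these genes AML was higher for 13.6%, lower for 19.2%, above all 3 other leukaemias for 7.81% and below all 3 for 9.14%. Of the 734 genes above all 3 in normal myeloid cells that passed this filter, AML was higher for 270 (36.8%), lower for 108 (14.7%) and above all 3 for 181 (24.7%). Their median AML difference was 0.52, against -0.14 for all genes. Of 2644 genes below all 3, AML was higher for 76 (2.87%) and lower for 675 (25.5%), with a median of -0.32. Across the 10039 genes the normal and the AML differences had a Pearson correlation of 0.38, which is a description over genes that share the same 8 libraries and is no test.

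The whole granule lists, which include genes not called in normal myeloid cells, parted by stage in AML. Primary granule genes, none of them above or below all 3 in normal myeloid cells, had a median AML difference of 5.56. Of these 9 genes, 7 were higher in AML. Elane had 3481 FPKM in AML, against 96.2 in B-ALL, 23.8 in T-ALL and 33.9 in AUL. Secondary granule genes had a median of 0.86, with 7 of 16 higher and 4 lower. Ngp had 3881 FPKM in AML, against 1429 in B-ALL, 295 in T-ALL and 303 in AUL, whereas Ltf had 66.4 FPKM in AML, against 1730.1 in B-ALL, 298 in T-ALL and 318 in AUL. Tertiary granule genes had a median of -1.70, with none of 6 higher and 4 lower. Mmp9 had 1.37 FPKM in AML, against 239.9 in B-ALL, 23.7 in T-ALL and 33.04 in AUL. Of the 12 genes furthest above all 3 in normal myeloid cells, 2 were highest in AML (Il1f9 and Slfn4) and 10 were highest in B-ALL, where neutrophil genes such as S100a9 were also read at 3785 FPKM. Il1b had 0.351 FPKM in AML, against 38.3 in B-ALL, 1.29 in T-ALL and 4.65 in AUL.

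Genes above all 3 in both settings included regulators and enzymes of the granulocyte line. Cebpe had 338 FPKM in AML, against 25.5 in B-ALL, 7.61 in T-ALL and 8.03 in AUL. Cebpd, its relative, had 77.4 FPKM in AML, against 5.85 in B-ALL, 1.53 in T-ALL and 1.26 in AUL. Gsr, which regenerates glutathione with NADPH, had 1271 FPKM in AML, against 97.4 in B-ALL, 80.4 in T-ALL and 81.5 in AUL, beside 952 FPKM in normal myeloid cells. Olfm4, a secondary granule protein of a subset of neutrophils, had 268 FPKM in AML, against 5.87 in B-ALL, 0.607 in T-ALL and 1.84 in AUL. MHC class II genes were lower in AML for all 10 (median -3.35), as they were in normal myeloid cells. The 29 ribosome biogenesis genes were neither higher nor lower in AML by 2-fold (median -0.14), and none of the 81 ribosomal protein genes was (median -0.06).

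**Figure D5:**
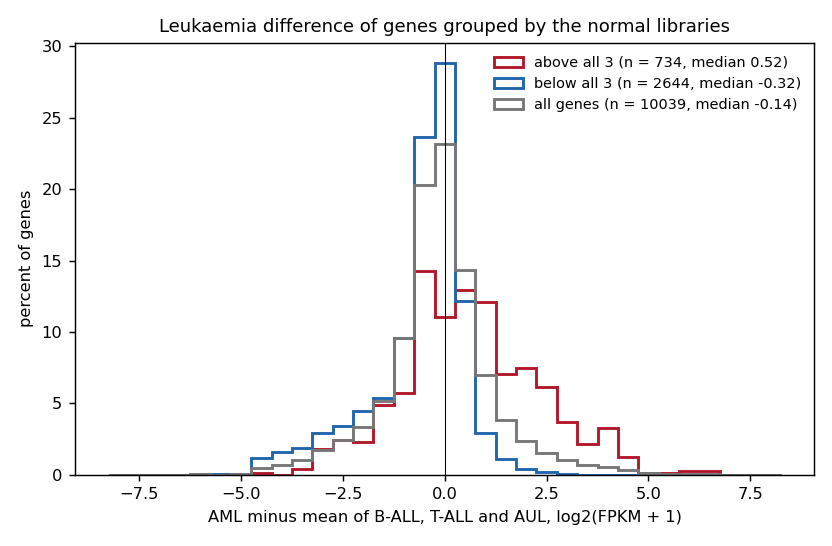
Percent of genes by AML minus the mean of B-ALL, T-ALL and AUL (log2(FPKM + 1), 1 library each), in bins of equal width, for genes above all 3 (red) or below all 3 (blue) in normal myeloid cells and for all tested genes (grey). The red genes have a median of 0.52 and a shoulder to the right, and the blue genes have a median of -0.32.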

How the data were processed

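RNA was measured in 4 normal and 4 leukaemia libraries, 1 for each population, and samples were grouped by their titles. The authors deposited 1 table of FPKM values per gene with a column for each library. The submitters' processing notes name STAR, HTSeq, edgeR and the mm10 build, without versions or roles. The table holds 16434 genes, and how genes were chosen for it, strandedness and pooling of animals are not given in the sources used here. Fragments of genes that overlap, lie antisense or have near-identical copies may therefore be split.

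From the FPKM, log2(FPKM + 1) was computed with a pseudocount of 1, and genes with at least 1 FPKM in any of the 4 normal libraries were kept. A call needs a size of at least 1 on that scale (2-fold). With 1 library per population no test was run, and sizes alone define the calls. Spread between animals cannot be read from these data. Fragments were recovered by multiplying FPKM by the mean GENCODE vM21 transcript length and by a total found from their steps. In genes with 1 transcript and low counts, they came out whole within 0.02 for 95.1% to 95.9% of values. Genes with 1 transcript also gave the totals, and other genes were not checked in this way. From the recovered fragments, exact binomial intervals of 95% for the ratio of 2 libraries were computed, which cover counting error only. Recovered totals range between 37000575 and 52280039 fragments in the 4 normal libraries, and between 33818489 and 43207600 in the leukaemia libraries.

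Named genes were the 12 furthest above the highest and the 12 furthest below the lowest of the 3 other libraries, with at least 10 FPKM in myeloid cells or in each of the 3, without receptor segments and predicted genes. From each list up to 4 members furthest outside the range were taken, with at least 5 FPKM, and the gate antigens. Other members of lists were named for their values. Some genes that these rules name are not reported here. Genes at the threshold, with the lowest shares in lineage-negative cells, or shared with AML were chosen after their values were seen. The members and the 49 lists of 749 genes were chosen with earlier results of these data known. Symbols turned into dates (18) were restored by gene identifier. Promoter sequences are those of RefSeq, GRCm38.p6. Calculations used Python 3.11.15, numpy 2.4.6, pandas 2.3.3, scipy 1.17.1 and matplotlib 3.10.9, and were tested on simulated data. Alternatives were other scalings, pseudocounts, filters and sizes of call, and leaving out each of the 3 other libraries.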

Additional observations from a re-analysis of the deposited data

How the results depend on the processing

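With 1 library per population, the limits are that no spread between mice is known and that the 3 other libraries are different cell types. Median-ratio scaling gave 2962 genes higher, 2285 lower, 2059 above all 3 and 1009 below all 3, with a median difference of -0.11. The common FPKM sum gave a median of -0.83. The median was -0.99 with a pseudocount of 0.1, -0.87 with an FPKM of at least 5, -0.28 without a filter and -0.81 with a mean FPKM of at least 1. With the lineage-negative library left out, 1419 genes were above the 2 others. A 4-fold size of call gave 655 genes higher, 1405 lower, 310 above all 3 and 595 below all 3. The 12 genes furthest above and the 12 furthest below all 3 kept their direction under the alternatives run. They were picked for their distance beyond all 3 libraries, so leaving any library out could not turn them. Their direction is thus no check of the calls, and the alternatives were not computed for other single genes. The list medians that changed sign all lay between -1 and 1. Of 264 values for the genes furthest above or below all 3, 201 stayed within 0.585 (log2) of the value reported and 63 moved further. Of 539 list medians, 449 stayed within it and 90 moved further. The cause of these shifts was not tested. Weak genes are limited by depth: 3 fragments is the floor for a value of 0. No paired analysis was possible because each population has 1 library and the labels give no replicate numbers. Identity between the proteins of near-identical copies was not computed.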
